A study of Neurospora crassa with 16 samples.

Results

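The comparison described here is that of an stk-12 mutant with wild type (WT) after 12 h of growth on cellulose, made across all genes of the filamentous fungus Neurospora crassa. It rests on the 4 libraries whose labels give the genotype and that time, 2 of the mutant and 2 of WT, out of 16 libraries in the series. The labels give the mutant a deletion of the kinase gene stk-12 and name no other change in either strain. Both groups shared the remaining conditions: a liquid culture in Vogel's salts with Avicel, a crystalline cellulose, as carbon source, under constant light. Total RNA of whole mycelium was sequenced, and the other libraries of the series came from the same 2 genotypes at 1 d, 3 d and 5 d.

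N. crassa is a saprotroph that degrades plant cell walls with secreted enzymes and takes up the released sugars and cellodextrins through transporters of the plasma membrane. Protein kinases and transcription factors set the expression of these genes according to the sugars, nitrogen and other nutrients at hand. The fungus has opposite mating types, A and a, each of which makes its own pheromone and the receptor for the pheromone of the partner. The mating type locus on chromosome I holds unrelated sequences in the 2 mating types.

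The 12 h mutant libraries held 26466759 and 25841965 reads assigned to genes, and the WT libraries 25027909 and 24796091. Levels are given as CPM, reads scaled to a common library size after TMM normalization, and each difference is a log2 fold change, mutant minus WT, from a quasi-likelihood model in edgeR fitted to all 16 libraries. A gene was called higher or lower where its Benjamini-Hochberg adjusted p over the 8983 genes tested was under 0.05. All adjusted p-values below come from that test. Whether the replicates were grown separately is not in the labels, and a p-value then reflects the spread between these libraries alone, which may be technical. In RNA from whole mycelium, fewer cells of one kind and less RNA per cell cannot be told apart. Whether counting used strand was not given in the sources used here. Values of overlapping, antisense and near-identical genes are therefore uncertain.

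stk-12 itself stood at 16.7 and 16.3 CPM in the mutant libraries, against 43.0 and 43.2 CPM in WT. Both mutant libraries lay below both WT libraries, and the log2 fold change was -1.39 ± 0.076 (SE, adjusted p = 3.93e-09). The transcript was thus lower but was not at 0 in the library labelled as its deletion. Counts per gene do not show where in the gene these reads lay.

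The strains held the pheromone transcripts of opposite mating types. Of the mating type A genes, matA-1 had 0 reads in both mutant libraries, against 644 and 677 reads in WT, which is at least 237-fold lower when a floor of 3 counts per library is set for the mutant. matA-2 had 0 reads in both mutant libraries, against 51 and 44 in WT, and matA-3 had 0, against 99 and 74, at least 17.1-fold and 31.1-fold lower. ccg-4, which encodes the pheromone of A cells, had 1 read in each mutant library, against 47789 and 50995 in WT. Its ratio was 53200-fold lower in the mutant (95% interval 14700 to 440000, counting error only).

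The genes of mating type a ran the other way. mfa-1, which encodes the pheromone of a cells, reached 9610 and 9830 CPM in mutant libraries, against 1.52 and 2.74 CPM in WT (12.15 ± 0.221 on the log2 scale, adjusted p = 1.43e-15). Per length, mfa-1 had 7250 and 7460 RPKM in the mutant, where the main cellobiohydrolase cbh-1 stood at 8240 and 7970 RPKM. pre-2, the pheromone receptor of mating type a cells, stood at 33.8 and 35.4 CPM in the mutant, against 0.428 and 0.556 CPM in WT (6.11 ± 0.168). pre-1, the receptor of mating type A cells, stood at 1.90 and 2.15 CPM in the mutant, against 5.37 and 4.78 CPM in WT (-1.32 ± 0.214, adjusted p = 0.000645). For each of these 7 genes the mutant and WT libraries were far apart, with no overlap. The mutation and the set of mating type transcripts went together in these libraries, so their parts in any difference below cannot be told apart.

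**Figure D1:**
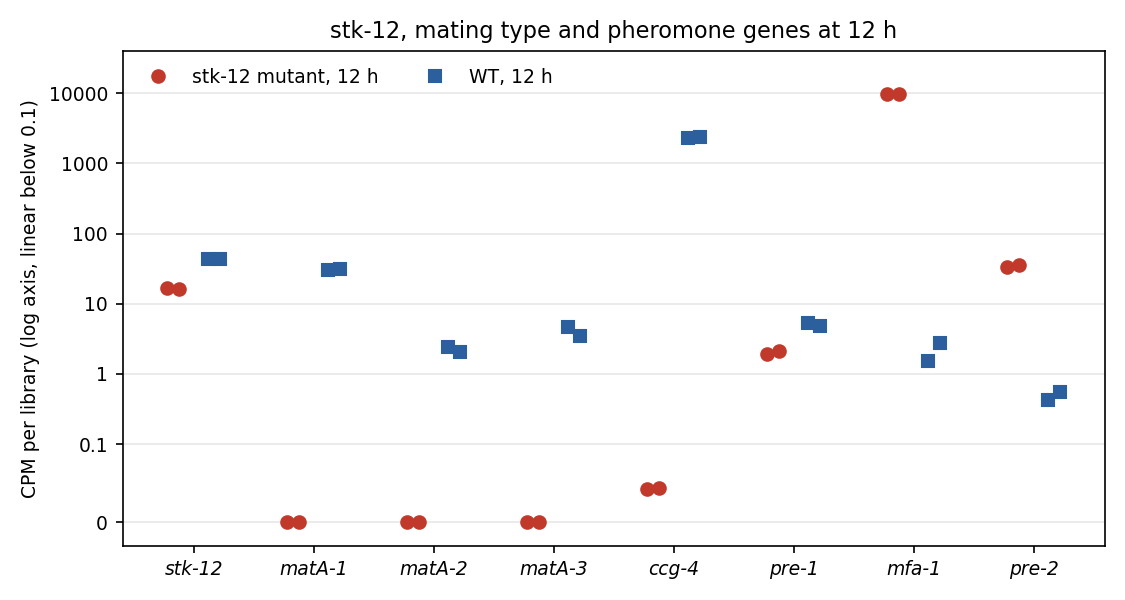
Each point is 1 library at 12 h, with CPM on the vertical axis (a log scale that turns linear below 0.1) for stk-12 and the mating type and pheromone genes, the mutant (circles) left of WT (squares). matA-1, matA-2 and matA-3 sit at 0 in the mutant, ccg-4 at 0.0432 and 0.0439 CPM, while mfa-1 and pre-2 sit far above their WT levels.

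In all, 1172 genes were called at 12 h, which is 13% of the genes tested. Of these, 587 (6.53%) were higher and 585 (6.51%) lower in the mutant. With library totals in place of TMM scaling, 665 were higher and 423 lower. Mutant and WT libraries did not overlap in 5097 genes (56.7%). Most genes named below were picked among called genes without overlap, so its absence in them follows from that choice. The differences were small: the median absolute log2 fold change of the called genes was 0.43 (quartiles 0.317 and 0.607), and 850 of them (72.5%) changed by less than 1.5-fold. Only 104 genes (1.16%) were called and changed at least 2-fold, 44 (0.490%) higher and 60 (0.668%) lower. The count of calls was 462 without WT replicate 1 and 544 without mutant replicate 2, whereas the count of 2-fold calls was 83 and 88 without those libraries.

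The 2-fold differences were crowded on one stretch of chromosome I. Genes were ordered by start position in the NC12 annotation, and the 50 genes on either side of the mating type locus were taken as its neighbours. Of the 97 neighbours tested, 32 (33.0%) were called, against 13% of all genes, 27 of them lower in the mutant and 5 higher. The called neighbours numbered between 18 and 29 when 1 library was left out, and 6 were higher and 27 lower with library totals. Around stk-12, which lies elsewhere on the same chromosome, 8 of 90 neighbours tested (8.89%) were called, 6 higher and 2 lower, and between 4 and 9 when 1 library was left out.

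The stretch ran mainly to one side of the locus. When the tested genes of each chromosome were cut into runs of 50, the run that holds the locus and the next 2 runs on that side had 64 called genes among 150. This stretch was picked after its values were seen, and the next 2 runs lie wholly on that side. The first run on the other side had 9 called genes among 50, 3 of them lower and 0 changed at least 2-fold. Of the 64, 56 were lower in the mutant and 22 changed at least 2-fold, matA-1, matA-2 and matA-3 among them, out of 104 such genes in the genome. Among the other 173 full runs the most called genes in a run was 14, the median was 6.0, and no run held more than 5 genes changed at least 2-fold. Without mutant replicate 2 the stretch held 47 calls, and it held 47 without WT replicate 1, with 21 and 20 of them at least 2-fold. Outside it, 42 genes were higher and 40 lower by at least 2-fold.

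Of the 22 genes on the stretch that changed at least 2-fold, 14 were uncharacterised, as were 64 of the 150 genes tested there. NCU02058, which lies 98 genes from matA-1, stood at 4.06 and 3.16 CPM in the mutant, against 23.6 and 25.5 CPM in WT (-2.76 ± 0.134, adjusted p = 9.18e-10). NCU02022 stood at 6.52 and 5.93 CPM in the mutant, against 36.9 and 34.2 CPM in WT (-2.51 ± 0.136, adjusted p = 3.8e-09). NCU02051, NCU02014 and NCU02042 had log2 fold changes of -2.46, -2.49 and -2.31. In each of these genes both mutant libraries were several times below both WT libraries.

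Genes with a named product on the stretch also fell. NCU02059, annotated as endothiapepsin, an aspartic protease, stood at 134 and 133 CPM in the mutant, against 377 and 364 CPM in WT (-1.47). NCU01961, the DNA lyase Apn2, 3 genes from matA-1, stood at 4.14 and 4.26 CPM in the mutant, against 11.6 and 13 CPM in WT (-1.55), and mus-42, annotated as the DNA repair polymerase REV1, fell by 1.97. NCU01970, of the DUF718 family, stood at 23.7 and 28.3 CPM in the mutant, against 88.9 and 103 CPM in WT (-1.88). Of the 8 higher genes on the stretch 6 changed by less than 2-fold, and the other two were uncharacterised. NCU02049 stood at 50.7 and 46.7 CPM in the mutant, against 16.4 and 15.3 CPM in WT (1.62 ± 0.0957, adjusted p = 9.81e-09). NCU02021 stood at 0.777 and 0.791 CPM in the mutant, against 0.143 and 0.185 CPM in WT (2.21 ± 0.493, adjusted p = 0.00708, and 0.0766 without WT replicate 1). Of the 32 called neighbours within 50 genes of the locus, 19 were also called in the same direction at 1 d.

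A few genes of housekeeping lists that were lower lay on this stretch. Of 70 cytosolic ribosomal protein genes tested, 3 (4.29%) were lower and 0 higher. 2 of the 3, un-16, encoding the small-subunit protein S9, and crp-53, lay there, at log2 fold changes of -0.66 and -0.56. un-16 stood at 1390 and 1400 CPM in the mutant, against 2290 and 2130 CPM in WT. Of 76 amino acid synthesis genes 2 (2.63%) were higher and 1 (1.32%) lower, and 0 and 4 without mutant replicate 1, 1 and 1 without mutant replicate 2, and 0 and 2 without either WT library. The lower one, leu-4 (2-isopropylmalate synthase, -0.59), lay on the stretch. So did the 1 lower gene among 13 of sulfur acquisition, cys-5 (phosphoadenosine phosphosulfate reductase, -0.62), whose adjusted p was 0.063 without mutant replicate 2 and 0.112 without WT replicate 1. Whether their place on the chromosome has a part in these differences was not tested.

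**Figure D2:**
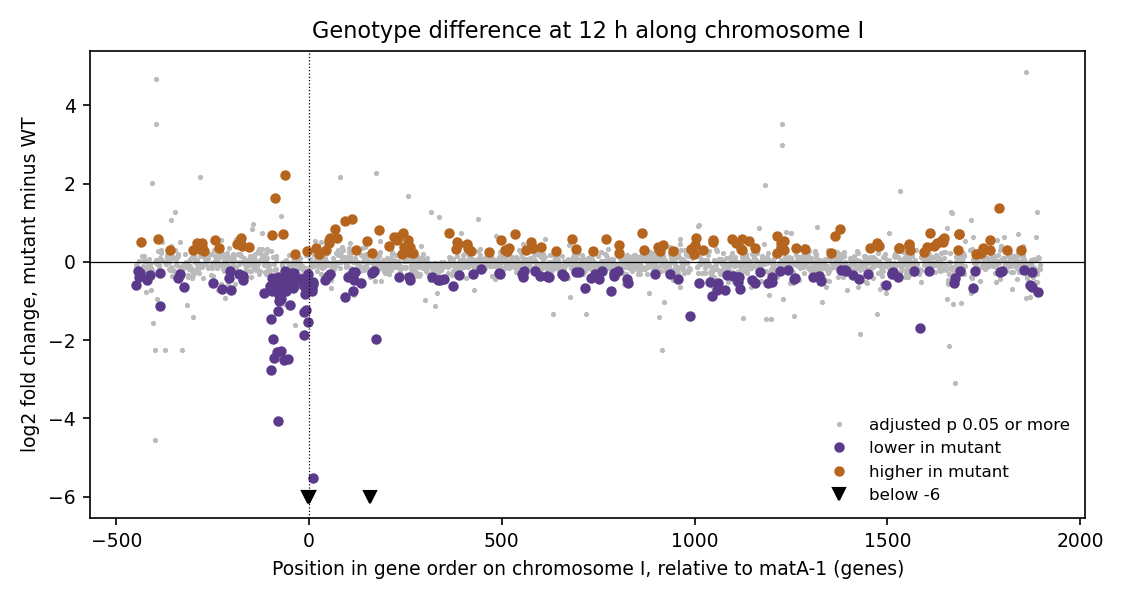
Each point is a tested gene of chromosome I, placed by its rank in gene order relative to matA-1 (horizontal axis, in genes), with its log2 fold change at 12 h (vertical axis). Coloured points have adjusted p under 0.05, and triangles mark matA-1, matA-2, matA-3 and ccg-4, which lie below -6. Of the 56 lower calls in the 3 runs of 50 genes, 49 lie left of matA-1 and 6 to its right. The runs beside the one that holds matA-1 lie wholly to its left, so the stretch covers more genes there.

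Away from that stretch, 4 called genes had 0 reads in both mutant libraries, 3 of them with many reads in WT. NCU09968, an uncharacterised gene on chromosome VI, had 0 reads in both mutant libraries, against 1650 and 1574 in WT, at least 579-fold lower. Its neighbour NCU09969 had 0 reads, against 153 and 157 in WT, at least 55.7-fold lower, and NCU16528 on chromosome II had 0, against 76 and 102, at least 31.9-fold lower. These 3, like the 3 mating type A genes, had 0 reads in all 8 mutant libraries of the series. NCU01946, which lies on the chromosome I stretch, had 1 and 2 reads in the mutant, against 70 and 70 in WT, a ratio of 50.3 (95% interval 16.9 to 247). Some genes with few reads were called as well. NCU05762 was the remaining gene at 0, and NCU02040, on the chromosome I stretch, had at most 1 read in a mutant library. NCU07043 and NCU09685, which lie away from the stretch, had at most 1 read in a WT library. None of these 4 calls held in every fit that left out 1 library, in which their highest adjusted p was 0.0891, 0.127, 0.161 and 0.222.

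Uncharacterised genes, those without a symbol and with a product called hypothetical or uncharacterised, gave 62 of the 104 calls of at least 2-fold. They made up 4276 of the 8983 genes tested, and 14 of the 62 lay on the chromosome I stretch. In all 253 of 4276 tested (5.92%) were higher and 204 (4.77%) lower, near the shares of all genes, with 89 and 103 without WT replicate 1 and 121 and 111 without mutant replicate 2. NCU01298 stood at 153 and 176 CPM in the mutant, against 8.23 and 8.58 CPM in WT (4.29 ± 0.138, adjusted p = 2.22e-12), with no overlap. Among called genes its difference was the largest positive one after mfa-1, pre-2 and the sparse NCU07043. NCU07201 stood at 24.0 and 23.1 CPM in the mutant, against 3.52 and 4.03 CPM in WT (2.64), and NCU05128 at 16.8 and 15.8 against 4.52 and 3.38 CPM (2.05). On the lower side NCU05494 stood at 0.173 and 0.176 CPM in the mutant, against 2.52 and 3.25 CPM in WT (adjusted p = 4.24e-05). Among the abundant ones differences were slight: NCU07192 stood at 1350 and 1430 CPM in the mutant, against 1010 and 1190 CPM in WT (0.35, adjusted p = 0.127 without WT replicate 1 and 0.0719 without mutant replicate 2).

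A pair of enzymes had some of the largest differences among genes of known product. NCU05980, a serine carboxypeptidase, stood at 12.6 and 11.6 CPM in the mutant, against 91.1 and 97.1 CPM in WT (-2.96 ± 0.172, adjusted p = 7.89e-09). NCU07053, an aldehyde dehydrogenase, stood at 8.63 and 9.62 CPM in the mutant, against 40.8 and 45.7 CPM in WT (-2.24 ± 0.151, adjusted p = 5.21e-08). Both were clear of overlap.

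Transcription factor genes were called higher more often than lower. The deposited table has a column headed TF, whose entries give DNA-binding classes, and of its 175 genes tested 29 (16.6%) were higher and 6 (3.43%) lower, against 6.53% and 6.51% of all genes. With library totals the counts were 31 and 3, without mutant replicate 1 they were 20 and 8, without WT replicate 1 they were 10 and 1, without mutant replicate 2 they were 17 and 1, and without WT replicate 2 they were 21 and 3. The median log2 fold change was 0.04, against -0.03 over all genes. Of the 69 zinc cluster (Zn2Cys6) genes 14 were higher and 2 lower, of the 55 C2H2 zinc finger genes 4 and 3, and of the 51 others 11 and 1. Without WT replicate 1 these counts were 6 and 0, 1 and 1, and 3 and 0, and without mutant replicate 2 they were 6 and 0, 5 and 1, and 6 and 0.

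NCU03643, annotated as a cutinase transcription factor, was the TF gene with the largest difference, at 95.6 and 119 CPM in the mutant, against 50.1 and 56.4 CPM in WT (1.01 ± 0.0963, adjusted p = 3.63e-06). acu-15, which activates genes of acetate use, stood at 460 and 473 CPM in the mutant, against 273 and 313 CPM in WT (0.67 ± 0.11, adjusted p = 0.000739). Neither overlapped with WT. NCU05411, annotated as a pathway-specific nitrogen regulator, NCU09329 and the helix-loop-helix factor NCU02724 rose by 0.54, 0.55 and 0.51. These 5 calls held under every alternative tried. fl, the activator of macroconidiation, rose by 0.52 (adjusted p = 0.0824 without WT replicate 1).

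Several known nutrient regulators were slightly higher. nit-2, the activator of nitrogen catabolic genes, stood at 259 and 233 CPM in the mutant, against 207 and 198 CPM in WT (0.28, adjusted p = 0.0145). xlr-1, the activator of xylanase genes, stood at 329 and 343 CPM in the mutant, against 286 and 259 CPM in WT (0.30, adjusted p = 0.0132). Their libraries did not overlap, but both calls were lost without some libraries: nit-2 without mutant replicate 1 (adjusted p = 0.126), WT replicate 1 (0.0631) or WT replicate 2 (0.0979), and xlr-1 without mutant replicate 2 (0.106) or WT replicate 2 (0.13). Of the 8 regulators of plant cell wall enzymes 2 were higher, xlr-1 and ada-1 (0.35, adjusted p = 0.082 without WT replicate 1). vib-1 was lower (-0.23, adjusted p = 0.0497), with adjusted p between 0.0653 and 0.316 when any 1 library was left out. The other 5 did not pass, with log2 fold changes of -0.12 for clr-1, -0.11 for clr-2, -0.25 for cre-1, -0.09 for col-26 and -0.19 for rca-1. Among the lower TF genes NCU05909 stood at 8.29 and 8.44 CPM in the mutant, against 11.6 and 15.9 CPM in WT (-0.72 ± 0.125, adjusted p = 0.0012).

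Many genes of the deposited column headed TP were higher in the mutant. Of its 38 genes tested, nearly all with transporter, permease or carrier products, 18 (47.4%) were higher and 0 lower, with a median log2 fold change of 0.29 against -0.03 over all genes. The counts with library totals were the same, and without mutant replicate 2 and without WT replicate 1 they were 8 and 9 higher with 0 lower. Among the 251 genes with a transporter or permease product, 46 (18.3%) were higher and 14 (5.58%) lower, with 22 and 5 without WT replicate 1 and 26 and 6 without mutant replicate 2.

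Both abundant and rarer transcripts were among them. cdt-1, the cellodextrin transporter, stood at 3210 and 3710 CPM in the mutant, against 2480 and 2340 CPM in WT (0.52 ± 0.108, adjusted p = 0.00446, and 0.076 without mutant replicate 2). NCU04963, a high-affinity glucose transporter, stood at 1540 and 2080 CPM in the mutant, against 1080 and 1130 CPM in WT (0.71 ± 0.126, adjusted p = 0.00142), and hgt-1, a monosaccharide transporter, at 2600 and 2820 against 2050 and 1970 CPM (0.43 ± 0.0657). For all 3 both mutant libraries lay above both WT libraries. NCU05627, a high-affinity glucose transporter, the sugar transporter NCU00821 and the MFS sugar transporter NCU06384 rose by 0.64, 0.66 and 0.93, and the quinate permease qa-Y by 0.48.

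Other carriers were mixed. Of 28 metal transporter (trm) genes 5 were higher and 1 lower, and 3 and 1 without mutant replicate 2, WT replicate 1 or WT replicate 2. Those 5 and 1 genes were 17.9% and 3.57% of the trm list, against 6.53% and 6.51% of all genes. trm-1, a calcium-transporting ATPase, stood at 61.3 and 71.8 CPM in the mutant, against 31.8 and 36.9 CPM in WT (0.96 ± 0.142, adjusted p = 0.000322), trm-6, a cation antiporter, rose by 1.02 and the iron permease trm-51 by 0.69. The nickel transporter trm-34 fell by 0.62. The carboxylic acid transporter NCU01231 stood at 195 and 238 CPM in the mutant, against 98.8 and 134 CPM in WT (0.89 ± 0.149). All 5 carriers were without overlap between the strains.

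Several genes for the use of acetate and for making sugars from it were higher. Of 7 genes of C2 metabolism and gluconeogenesis 4 (57.1%) were higher, against 6.53% of all genes, and 0 lower, with a median of 0.36. acu-6, phosphoenolpyruvate carboxykinase, which opens gluconeogenesis, stood at 86.2 and 67.0 CPM in the mutant, against 25.4 and 38.2 CPM in WT (1.27 ± 0.204, adjusted p = 0.000614). acu-9, malate synthase of the glyoxylate cycle, stood at 164 and 170 CPM in the mutant, against 120 and 120 CPM in WT (0.48 ± 0.0686). acu-3, isocitrate lyase of the same cycle, rose by 0.36 (adjusted p = 0.0644 without mutant replicate 2 and 0.0595 without WT replicate 1), and acu-15 is given above. The mutant libraries of these 4 genes lay above the WT libraries, while acu-5, the acetyl-CoA synthetase, was close to WT (-0.03).

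Single catabolic genes outside that list also rose. NCU06005, glycerol kinase, stood at 205 and 290 CPM in the mutant, against 79.4 and 91.2 CPM in WT (1.54 ± 0.13, adjusted p = 1.06e-06). gdh-1, the NAD-specific glutamate dehydrogenase of amino acid breakdown, stood at 655 and 665 CPM in the mutant, against 378 and 457 CPM in WT (0.66). The dehydrogenases NCU03893 (short-chain) and NCU03415 (aldehyde) rose by 1.09 and 0.78, whereas of the 226 dehydrogenases and other oxidoreductases 17 were higher and 28 lower, with 6 and 15 without mutant replicate 2, 8 and 13 without WT replicate 1, and 14 and 18 without WT replicate 2. Those 17 and 28 genes were 7.52% and 12.4% of the oxidoreductases, against 6.53% and 6.51% of all genes. Of 6 pentose catabolism genes 3 (50%) were higher, among them xyk-1, xylulose kinase, at 380 and 418 against 268 and 281 CPM (0.54 ± 0.0659), and the xylitol dehydrogenase NCU00891 (0.52). Of 23 fatty acid oxidation genes 6 were higher and 0 lower, with 1 higher without mutant replicate 2 and 2 without WT replicate 1. The acyl-CoA dehydrogenase acd-1 stood at 163 and 205 CPM in the mutant, against 127 and 132 CPM in WT (0.50, adjusted p = 0.0547 without mutant replicate 2).

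**Figure D3:**
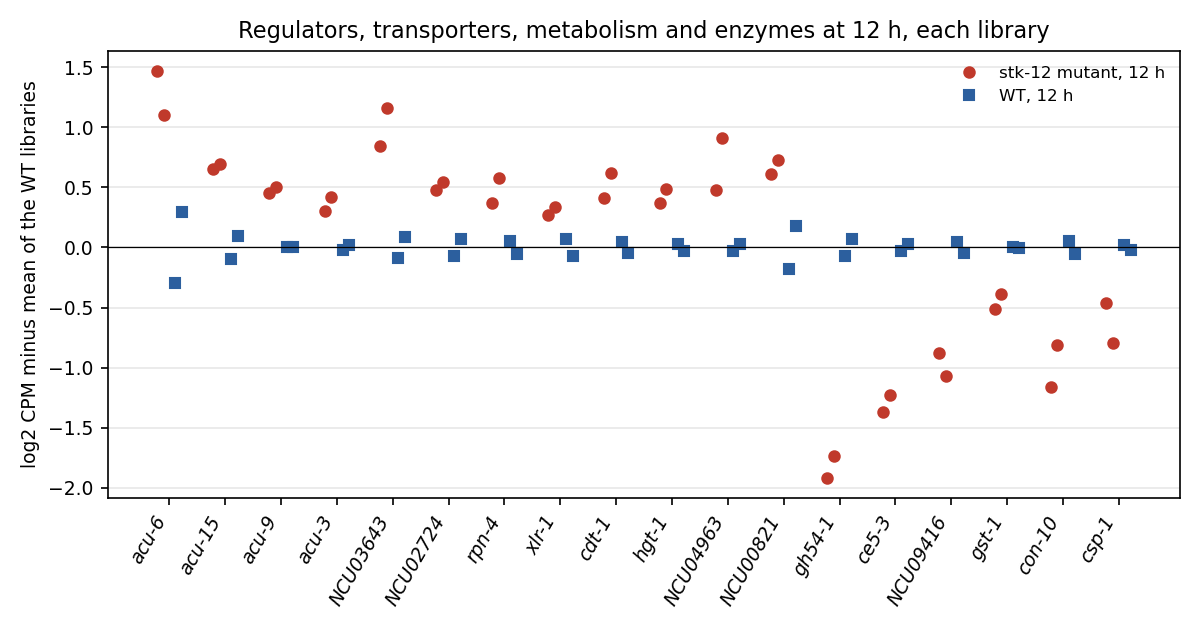
Each point is 1 library at 12 h, as log2 CPM minus the mean of the WT libraries (vertical axis), for 18 called genes, the mutant (circles) left of WT (squares). The mutant libraries of acu-6, acu-15, NCU03643 and the transporters lie above WT and those of gh54-1, ce5-3, NCU09416, gst-1, con-10 and csp-1 below it, without overlap.

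Several enzymes that act on side chains of plant polysaccharides were lower. Of 23 carbohydrate esterases (CE families of the CAZy column) 9 were lower and 0 higher, a count of 9 or 10 when any 1 library was left out, with a median of -0.31. The lower share of the esterases was 39.1%, against 6.51% of all genes. The ce5-3 acetylxylan esterase stood at 61.6 and 67.9 CPM in the mutant, against 156 and 162 CPM in WT (-1.29 ± 0.137, adjusted p = 1.14e-05). NCU09416, a cellulose-binding lipase, stood at 282 and 247 CPM in the mutant, against 535 and 501 CPM in WT (-0.97 ± 0.0859, adjusted p = 1.71e-06). gh54-1, an arabinofuranosidase, stood at 5.78 and 6.55 CPM in the mutant, against 20.8 and 22.9 CPM in WT (-1.82 ± 0.171), and gh62-1, at 0.777 and 0.835 against 4.90 and 4.22 CPM, fell by 2.49. These 4 genes were picked among called genes without overlap between the strains.

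Over the whole CAZy column 20 of 298 genes were higher and 53 lower, with 28 to 37 lower and 6 to 16 higher when any 1 library was left out, fewest higher (6) without WT replicate 1 and fewest lower (28) without mutant replicate 2. The higher share of the CAZy column, 6.71%, was near the 6.53% over all genes, and the lower share was 17.8%, against 6.51%. The 7 lower genes of the 23 in the Cellulase column, with 0 higher, included gh61-9, a lytic polysaccharide monooxygenase (2600 and 2530 against 3590 and 3530 CPM, -0.47). In that column 1 gene was lower without WT replicate 1, 1 without mutant replicate 2 and 2 without mutant replicate 1. The Hemi-cellulase column had 7 lower and 0 higher of 18, with 4 lower without WT replicate 1 and 3 without mutant replicate 1. Families GH13, GH15, GH31 and GH32 ran the other way, with 5 of their 15 genes (33.3%) higher and 0 lower. Most of these calls were lost without WT replicate 1, and some without mutant replicate 2 or WT replicate 2. Of these, the alpha-xylosidase NCU04885 stood at 50.7 and 57.5 CPM in the mutant, against 36.2 and 39.3 CPM in WT (0.52 ± 0.079, adjusted p = 0.000371).

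Several glutathione enzymes, which detoxify electrophiles, were lower. Of 15 tested 6 were lower and 0 higher, between 4 and 6 when 1 library was left out, with a median of -0.23. The lower share of this list was 40%, against 6.51% of all genes. The transferase gst-1 stood at 43.2 and 47.0 CPM in the mutant, against 61.7 and 61.4 CPM in WT (-0.45 ± 0.0943, adjusted p = 0.00483), and NCU04676, also a transferase, at 84.4 and 97.8 against 129 and 137 CPM (-0.55 ± 0.0829). The libraries of both genes were apart. Of 7 genes of oxidant defence 3 were also lower, and 1 was higher, with 1 higher and 1 lower under library totals. The lower ones, cat-1, sod-1 and cat-2 (-0.37, -0.31 and -0.28), encode 2 catalases and a superoxide dismutase, and none of the 3 passed without mutant replicate 2, WT replicate 1 or WT replicate 2. cat-3, the catalase of growing hyphae, was the higher one, at 37.5 and 45.1 CPM in the mutant, against 26.8 and 27.3 CPM in WT (0.61 ± 0.113).

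Some genes of protein breakdown were slightly higher and some of ribosome assembly slightly lower. Higher calls were 36.8% of the 19S proteasome cap list, against 6.53% of all genes. Lower calls were 21.7% of the ribosome biogenesis list and 25% of the RNA helicase list, against 6.51% of all genes. Of 19 genes of the 19S proteasome cap and its regulator 7 were higher and 0 lower (median 0.16), but 4 were higher without mutant replicate 1 and 1 without mutant replicate 2, WT replicate 1 or WT replicate 2. In the whole proteasome list 7 of 33 genes (21.2%) were higher and 0 lower. rpt-3, an ATPase of the cap, stood at 317 and 318 CPM in the mutant, against 239 and 244 CPM in WT (0.40 ± 0.0596, adjusted p = 0.000337). rpn-4, whose namesake in Saccharomyces cerevisiae activates proteasome genes, stood at 34.7 and 40.1 CPM in the mutant, against 27.8 and 25.9 CPM in WT (0.48, adjusted p = 0.0144). It did not pass without mutant replicate 2 (0.155), WT replicate 1 (0.0631) or WT replicate 2 (0.0976). Of 23 ribosome biogenesis (rbg) genes 5 were lower and 0 higher (median -0.27), with 15 lower without mutant replicate 1, 2 without WT replicate 2 and 0 without mutant replicate 2 or WT replicate 1. Of 16 RNA helicase (drh) genes 4 were lower (median -0.25), with 9 lower without mutant replicate 1, 1 without WT replicate 2 and 0 without mutant replicate 2 or WT replicate 1.

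Protein kinase genes were called about as often as all genes, 12% against 13%. Of 100 tested 8 were higher and 4, stk-12 included, lower, with 2 or 3 higher and 2 lower without mutant replicate 2, WT replicate 1 or WT replicate 2. prk-1, the glycogen synthase kinase 3 homologue, stood at 312 and 370 CPM in the mutant, against 231 and 243 CPM in WT (0.52 ± 0.0826, adjusted p = 0.000533). Of 15 genes of the mitogen-activated protein kinase cascades 3 (20%) were higher and 0 lower, and of 13 of G protein signalling 2 and 0, with 0 in both lists without WT replicate 1 and 1 in each without mutant replicate 2 or WT replicate 2. Of 15 hyphal fusion genes 5 (33.3%) were higher and 0 lower, with 1 without WT replicate 1 and 2 without mutant replicate 2. nox-1, the NADPH oxidase needed for fusion, stood at 162 and 164 CPM in the mutant, against 119 and 131 CPM in WT (0.38 ± 0.07). Of 14 nitrogen assimilation genes 3 were higher and 0 lower, with 0 or 1 higher whichever library was left out. Of 7 phosphate acquisition genes 2 were higher and 0 lower (1 or 2 higher with a library left out), and of 7 quinate cluster genes 2 and 0 (1 higher). Of 12 clock and blue light genes 1 was higher and 2 lower, with 0 or 1 higher and 0 to 2 lower when a library was left out. In such small lists 1 gene is a large share, such as 8.33% of the clock and blue light genes, against 6.53% higher over all genes. There were 0 calls among 5 carotenoid, 13 sterol synthesis, 12 heat shock and 10 histone genes. In lists this small 0 calls is not far from the 13% called over all genes. With the size factors of DESeq2 in place of TMM, 2 sterol synthesis genes were lower.

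**Figure D4:**
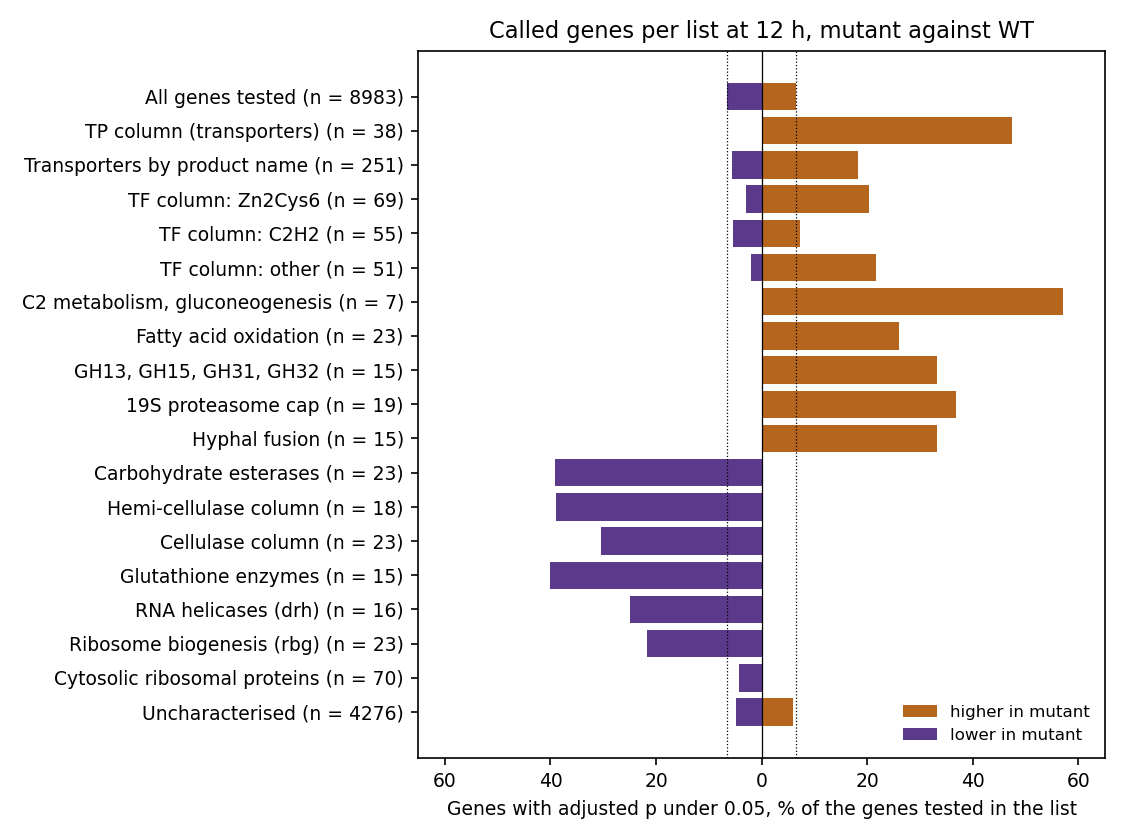
Bars give the share of the tested genes of each list that were called higher (right) or lower (left) in the mutant at 12 h, in %, with the number tested after each name. Dotted lines mark the shares over all genes tested, 6.53% higher and 6.51% lower, and the TP column reaches 47.4% higher while glutathione enzymes reach 40.0% lower.

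Markers of cell types were measured alongside. The 7 hyphal markers had a median log2 fold change of -0.042, with 3 above 0, against a median of -0.028 over all genes. The 7 summed to 4770 and 4860 CPM in the mutant, against 5410 and 5370 CPM in WT, and none was at 0. Of them hex-1, the Woronin body protein, had a log2 fold change of -0.31, with adjusted p between 0.0539 and 0.0812 when any 1 library was left out, and so, needed for hyphal fusion, had 0.31 (0.0671 without mutant replicate 2 and 0.148 without WT replicate 1). The 14 conidiation genes summed to 3750 and 4010 CPM in the mutant, against 3950 and 3770 CPM in WT, so that the sums overlapped, and none was at 0 in either strain. Of them, con-10 stood at 83.1 and 106 CPM in the mutant, against 193 and 180 CPM in WT (-0.98 ± 0.183), fl was higher and csp-1 lower (-0.62, adjusted p = 0.124 without mutant replicate 2 and 0.0668 without WT replicate 1). The 9 markers of sexual structures summed to 494 and 502 CPM in the mutant, against 628 and 605 CPM in WT, with none at 0. Of them 3 (33.3%) were called lower and 1 (11.1%) higher, against 6.51% and 6.53% of all genes. In a list of 9 genes 1 call is a large share, and only 1 of these calls reached 2-fold. poi-2, a mating response gene, stood at 1.77 and 1.19 CPM in the mutant, against 5.99 and 4.54 CPM in WT (-1.83 ± 0.251, adjusted p = 0.000154). The part of such cells in the differences above was not tested.

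The 12 h differences were set against those at 1 d, a comparison that shares no library with them but comes from the same model. At 1 d 3337 genes were called (37.1%), 1718 (19.1%) higher and 1619 (18%) lower, and 622 genes were called at both times. Of these, 494 had the same direction, which is 42.2% of the calls at 12 h and 14.8% of those at 1 d, and 128 had the opposite direction, 63 higher at 12 h and lower at 1 d and 65 the reverse. The difference between the genotype differences at the 2 times was itself called for 1945 genes (21.7%), positive (12 h minus 1 d) for 846 (9.42%) and negative for 1099 (12.2%). With library totals it was positive for 449 and negative for 1729, while the median difference over all genes was -0.163, against -0.044 with TMM. Leaving out mutant 1 d replicate 1, WT 1 d replicate 1, WT 12 h replicate 1 or mutant 12 h replicate 2 gave 1088, 1115, 1181 and 1189 calls.

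acu-6 changed sides between the times. It was higher in the mutant at 12 h, as given above, but at 1 d it stood at 69.5 and 45.3 CPM in the mutant, against 331 and 252 CPM in WT (-2.35, adjusted p = 4.77e-07), and the 2 differences differed by 3.62 ± 0.286 (adjusted p = 1.37e-06). rpn-4 at 1 d stood at 32.7 and 46.6 CPM in the mutant, against 76.7 and 76.4 CPM in WT (-0.94), and fl at 10.1 and 9.72 against 14.3 and 16.5 CPM (-0.64). acu-15, NCU04963 and trm-1, all higher at 12 h, had log2 fold changes of -0.01, -0.19 and -0.18 at 1 d, where none passed. The difference between the times passed the test for each of these 6 genes.

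Several lists had calls in the other direction at 1 d. Against 19.1% higher and 18% lower over all genes at 1 d, 12 of the 23 rbg genes were higher and 0 lower at 1 d, and 14 had a called difference between the times, each negative. Of the 19 genes of the 19S cap list 11 were lower and 0 higher at 1 d, and 13 had a called difference, each positive. For glutathione enzymes 10 of 15 were lower at 1 d and the differences between the times were called for 0 of them. Of the TP column 16 were higher and 3 lower at 1 d. The mating genes matA-1, matA-2, matA-3 and ccg-4 were lower at both times, and pre-2 and NCU01298 were higher at both, at 6.74 and 4.24 at 1 d.

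**Figure D5:**
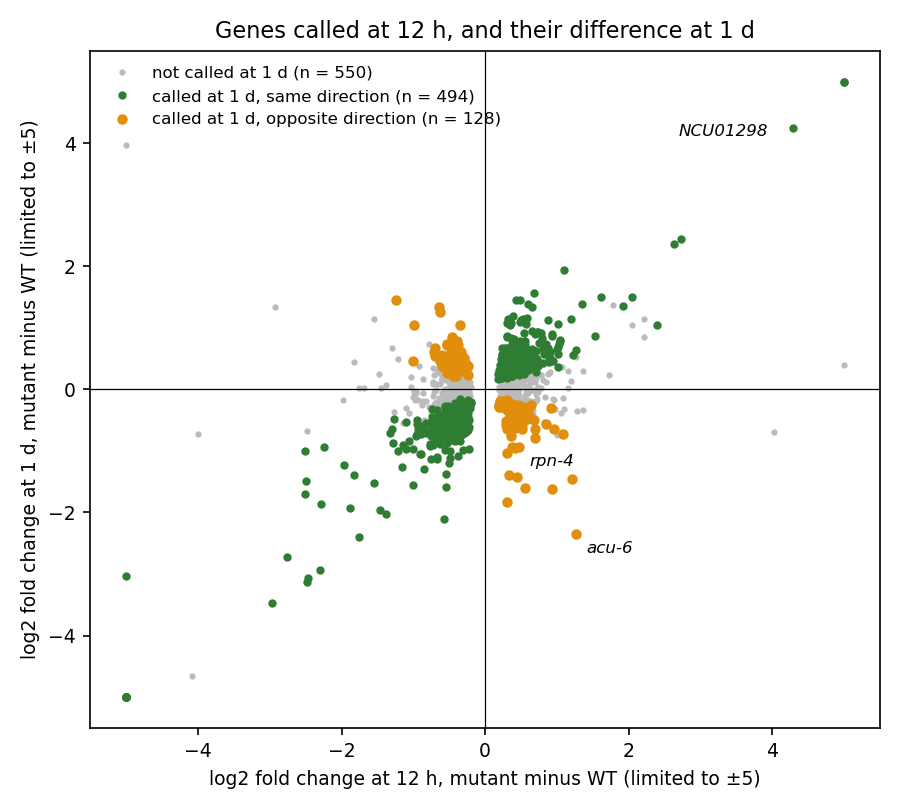
Each point is a gene called at 12 h, with its log2 fold change at 12 h (horizontal axis) and at 1 d (vertical axis), both mutant minus WT and limited to the range shown. Of these genes 494 were called in the same direction at 1 d, 128 in the opposite direction and 550 were not called at 1 d, with acu-6 the lowest of the opposite ones.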

How the data were processed

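The deposited table gives read counts per gene (count) and RPKM, which scales reads by gene length and library total, per the file headers, and 9730 genes were in it. TopHat2 (2.0.8b) and HTSeq (0.5.4p3) are named per the submitters' processing notes, and the genome build is not given in the sources used here. Every RPKM value deposited by the authors above 0 matched its count within a relative tolerance of 0.001. Tests used counts only. RPKM served to compare levels between genes.

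The filter on low counts was filterByExpr with a minimum count of 10 (8983 genes kept, 747 removed), followed by TMM scaling. edgeR (4.0.16) in R (4.3.3) fitted a quasi-likelihood model with 1 mean per group to all 16 libraries (8 residual degrees of freedom, common biological coefficient of variation 0.0685). The contrasts were mutant minus WT at 12 h, the same at 1 d, and their difference, with Benjamini-Hochberg adjustment and a threshold of 0.05. The SE, given after ± in the text, was derived from the fold change and its F statistic. DESeq2 (1.42.0), other scalings and filters, and fits without each library in turn were alternatives. With 2 libraries against 2, an exact permutation test cannot go below p = 0.333 two-sided, and summed marker levels are given without a test. Replicates were not identical within sampling noise (chi-square per degree of freedom 10.6 in the mutant and 7.11 in WT). On simulated data for the 12 h contrast over 8983 genes, 50 genes were changed at each of 4 sizes. Of the 1.25, 1.5, 2 and 4-fold changes 24, 66, 86 and 100% were recovered, and 3.5% of the calls were false. Apart from the changed genes, each simulated gene had the same mean in every group. Its spread followed from its level alone. The real libraries differ in both respects, so these rates may not hold for them.

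Symbols, chromosomes and gene order came from the RefSeq table of assembly NC12, which matched 9729 genes. Named genes were called genes whose libraries did not overlap: the 12 with the largest difference in each direction, up to 4 (or 6 in each direction) per list, the largest and most abundant uncharacterised genes, the most abundant called genes, the 8 largest differences between the times, and a fixed set of regulators and mating genes. Further genes of the chromosome I stretch, and NCU06005, were named after their values were seen. The members and lists were chosen with earlier results of these data known.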

Additional observations from a re-analysis of the deposited data

Results flagged for a closer look

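The genotype difference at 12 h differed from that at 1 d in 1945 genes. Among genes with many reads, the difference between the times (12 h minus 1 d, log2) was 4.52 for cfp, which encodes pyruvate decarboxylase, at 70.8 and 79.2 CPM in the mutant and 65.6 and 62.0 CPM in WT at 12 h, but 83.9 and 131 CPM in the mutant and 2360 and 1830 CPM in WT at 1 d. It was 4.32 for NCU07257, an F-box protein gene, 5.71 for NCU06940 and 5.37 for NCU16673. At 1 d the mutant libraries of NCU06940 stood at 2.65 and 17.2 CPM, and those of NCU16673 at 2.52 and 42.6 CPM, so the 2 mutant replicates stood apart in both. For the genes followed in the report it was 3.62 for acu-6, 2.28 for mfa-1, 1.42 for rpn-4, 1.16 for fl, 1.13 for trm-1, 0.9 for NCU04963, 0.68 for acu-15, 0.64 for stk-12 and -1.31 for NCU07053, each with an edgeR adjusted p under the threshold.

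The fitted values of -10.28 for NCU05762, -6.97 for NCU01593, -6.4 for NCU02324 and -5.48 for NCU12052 are those of genes with 0 reads in 1 or more groups. Each had at most 14 reads in any of the 8 libraries of the 2 times, and the size of such a fitted value depends on the prior count.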

How the results depend on the processing

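At 12 h the count of called genes ran from 462 to 1018 when 1 library was left out (higher 218 to 504, lower 244 to 514), against 1172 (587 and 585), and from 1013 to 1182 under the other alternatives. For the difference between 12 h and 1 d it ran from 1088 to 2357 (positive 497 to 1029, negative 591 to 1328), against 1945 (846 and 1099). Library totals gave 449 positive and 1729 negative there. A lone library in a group was assumed to vary like the others. Fits without a library have fewer samples, and the cause of the unequal losses was not tested.

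Same-numbered libraries of the strains shared little deviation. Their deviations correlated at 0.0527 across genes at 12 h, and at -0.0698, 0.00153 and -0.0327 at 1 d, 3 d and 5 d. These values cannot show whether same-numbered samples were prepared together. With a replicate block 1013 genes were called at 12 h (497 higher, 516 lower) and 1668 for the difference between the times (729 and 939).

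Of 213 called genes among those named, 84 kept their call in every alternative, and no called gene changed direction. Under library totals 17 did not pass, under DESeq2 10, without WT replicate 1 112 and without mutant replicate 2 102. These counts cover the 323 genes picked by the naming rules, without those named only after their values were seen. DESeq2 gave no adjusted p for some called genes with few reads, and these were not counted as lost there. Differences under about 1.5-fold are near the limit of what these libraries can show.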
